A study of Mus musculus with 6 samples.

Results

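Aldo-keto reductases are enzymes that use NADPH to reduce aldehydes and ketones, among them steroids, prostaglandins, sugars and the products of lipid oxidation. The genes described here are Akr1c14 and 6 relatives, Akr1c18, Akr1c12, Akr1c13, Akr1b3, Akr1b8 and Akr1a1, in mouse embryonic fibroblasts that were being reprogrammed toward pluripotency. The starting gene was selected on measured values: by mean difference of day 7 over day 3, Akr1c14 was the third of 12621 tested genes. The relatives were added by family, and all probe sets that the platform annotation pairs with exactly 1 of these genes were taken. That gave 9 probe sets for 6 genes, of 45101 probe sets and 18193 genes with a probe set of their own in all. No probe set is paired with Akr1b3, the aldose reductase gene of the polyol pathway, which was therefore not analysed here.

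The cells were B6CBAF1/J embryonic fibroblasts grown in the medium used for embryonic stem cells, which held serum and LIF, a cytokine that keeps such cells undifferentiated. They carried SOX2 and KLF4 together with OCT4 in the version called 5R (O(5R)SK) or with the wild-type protein (O(WT)SK). What 5R denotes, how the factors were delivered and how old the embryos were is not given in the labels. RNA was taken on days 3, 5 and 7, and each combination and day was measured on 1 Affymetrix array. The 6 arrays thus hold no replicate of a combination on a day, no source used here says whether their cultures were separate, and p-values rest on the scatter among these arrays alone, which may be technical.

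Values are array intensities as deposited, with a 2% trimmed mean of 500 on each array, and differences are on the scale of log2(intensity + 16). Across probe sets, which are no replicates, the arrays correlated pairwise with r between 0.974 and 0.982. The bright end was lowest for O(5R)SK on day 7, where intensities reached 34285 against 40353 to 47606 elsewhere. Of the fibroblast markers 12 of 12 passed the filter on low values described below. Most were bright, for example Col1a1 at 5254 to 6346 and Col1a2 at 20424 to 31887, while Pdgfra (69.1 to 103), Lum (44.0 to 135) and Fap (121 to 271) were dim. Of the pluripotency markers, Pou5f1, which encodes OCT4, read 4042 to 4803 with O(5R)SK and 2290 to 2741 with O(WT)SK, while Nanog stayed at 4.06 to 16.7. As the cells carried introduced OCT4, the Pou5f1 values may come from it, from the cells' own gene or from both, which was not tested. In such bulk samples a lower share of expressing cells and less RNA per cell cannot be told apart.

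Akr1c14 encodes a 3-alpha-hydroxysteroid dehydrogenase, which reduces 3-ketosteroids such as dihydrotestosterone. Akr1c18 encodes 20-alpha-hydroxysteroid dehydrogenase, best known in mice for inactivating progesterone at the end of pregnancy. Both belong to a cluster on chromosome 13, where the annotation lists, in order, Akr1c14, Akr1c18, Akr1c13, Akr1c19, Akr1c12, Akr1c6, Akr1c20, Akr1c21 and Akr1e1. Akr1b8 lies in a second cluster on chromosome 6, between Akr1b3 and Akr1b10, and Akr1a1 lies on chromosome 4.

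The 250 bases before the annotated start are shown for Akr1c14 and Akr1c18, neighbours in the cluster whose transcripts were well measured and moved differently. The sequences are from RefSeq (GRCm38.p6), at chr13:4059341-4059590 on the plus strand for Akr1c14 and chr13:4150647-4150896 on the minus strand for Akr1c18. Capitals mark the aligned runs of at least 8 identical bases.

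Akr1c14: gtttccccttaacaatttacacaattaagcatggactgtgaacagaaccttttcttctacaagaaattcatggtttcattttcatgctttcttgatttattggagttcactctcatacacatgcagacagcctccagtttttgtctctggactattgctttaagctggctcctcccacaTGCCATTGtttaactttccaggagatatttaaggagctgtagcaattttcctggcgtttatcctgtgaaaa
Akr1c18: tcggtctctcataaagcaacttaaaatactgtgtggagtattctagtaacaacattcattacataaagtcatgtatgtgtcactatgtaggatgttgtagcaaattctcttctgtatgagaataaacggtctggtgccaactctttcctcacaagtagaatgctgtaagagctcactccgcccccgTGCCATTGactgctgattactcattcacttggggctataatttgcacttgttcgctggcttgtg

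These windows were identical in 161 of 288 aligned columns (55.9%). They shared 1 such run, TGCCATTG, which begins 71 bases before the start of Akr1c14 and 64 bases before that of Akr1c18, and which 0.858% of 32851 promoter windows hold on either strand. The run was picked because this pair shares it, and how often aligned windows share any run of that length was not counted. The other members in this cluster, Akr1c13 (chr13:4190937-4191186, plus strand) and Akr1c12 (chr13:4279400-4279649, minus strand), are shown because they are near copies of each other. Windows of cluster genes outside the member list were not aligned. Here the capitals mark bases that differ or have no partner in the alignment.

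Akr1c13: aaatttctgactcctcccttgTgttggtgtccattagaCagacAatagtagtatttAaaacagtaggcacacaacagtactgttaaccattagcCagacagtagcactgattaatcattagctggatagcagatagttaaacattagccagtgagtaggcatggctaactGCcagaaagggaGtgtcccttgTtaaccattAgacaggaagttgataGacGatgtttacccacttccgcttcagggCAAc
Akr1c12: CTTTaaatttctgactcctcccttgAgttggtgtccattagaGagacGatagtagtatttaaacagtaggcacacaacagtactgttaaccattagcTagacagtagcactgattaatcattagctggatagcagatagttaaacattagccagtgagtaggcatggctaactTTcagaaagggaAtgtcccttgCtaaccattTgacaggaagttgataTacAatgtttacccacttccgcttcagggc

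Akr1c13 and Akr1c12 were identical in 235 of 254 aligned columns (92.5%), against 47.2% to 55.9% for every other pair among the 6 members with a window. The core of the antioxidant response element bound by NRF2 (TGACNNNGC) was found in 0 of the 6 windows on either strand, where 10.2% of all windows hold it. The octamer bound by OCT4 (ATGCAAAT) was likewise found in 0 of 6, and 1.60% of all windows hold it.

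Akr1c14 was high on day 7 and low on day 3 with either OCT4 version. With O(5R)SK its only probe set gave 732, 4450 and 8926 on days 3, 5 and 7, against 766, 4034 and 6053 with O(WT)SK. On days 3 and 5 the combinations lay close together, and on day 7 the O(5R)SK array was the higher one. Between day 3 and day 5 the log2 change was 2.58 with O(5R)SK and 2.37 with O(WT)SK, or 5.97-fold and 5.18-fold. Between day 5 and day 7 it was 1.00 and 0.58, or 2.00-fold and 1.5-fold, so the larger step came before day 5 in both combinations. From day 3 to day 7 the change was 3.58 with O(5R)SK and 2.96 with O(WT)SK, with a mean of 3.27 (9.63-fold). This contrast chose the gene, so it is given as a description with no test. Just above Akr1c14 by that difference stood Ms4a4d (3.51) and just below it Lbp (3.09).

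**Figure D1:**
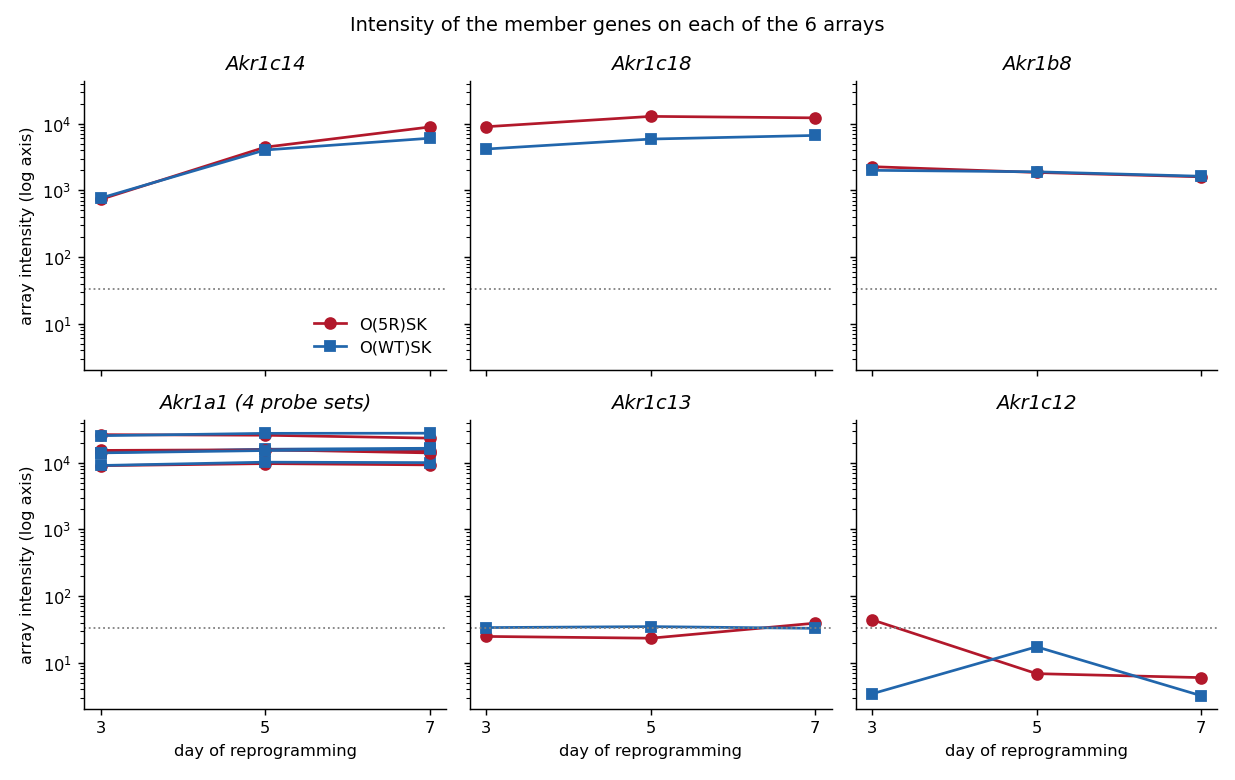
Array intensity (log axis) of the 6 member genes with a probe set by day of reprogramming, with O(5R)SK as red circles and O(WT)SK as blue squares, 1 array per point. The dotted line is the filter intensity of 33.5. Akr1c14 climbs from day 3 to day 7 in both combinations, the O(5R)SK points of Akr1c18 lie above the O(WT)SK points on each day, Akr1b8 and Akr1a1 stay nearly flat, and Akr1c13 and Akr1c12 lie around or under the line.

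Setting O(5R)SK against O(WT)SK day by day asks whether these genes differ between the combinations, and it was not used to choose Akr1c14. Pou5f1 also read higher with O(5R)SK on each day (mean log2 difference 0.82). The OCT4 version therefore cannot be told apart from the Pou5f1 level or from the cultures. Genes entered the test if their mean lay above an intensity of 33.5, the 40th percentile of all probe sets, which Akr1c14, Akr1c18, Akr1b8 and Akr1a1 did and Akr1c12 and Akr1c13 did not. Of these 4 genes, 0 passed an adjusted p of 0.05 in limma, as did 0% of the 12621 genes tested. Over all genes the adjusted p went no lower than 0.109, while 1180 fell under 0.05 before adjustment. With a trended, robust prior limma called 83 genes, among them Akr1c18.

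Akr1c18 had the widest difference of the 4. With O(5R)SK it read 9015, 12879.5 and 12239 on days 3, 5 and 7, and 4174, 5885 and 6672 with O(WT)SK. Every O(5R)SK array lay above every O(WT)SK array. Such a gap was found for 1 of the 4 tested members, against 4.64% of all tested genes, and the opposite gap for 0 of the 4, against 4.69%. By day the log2 difference was 1.11, 1.13 and 0.87, or 2.16-fold, 2.19-fold and 1.83-fold, and its mean was 1.04 (SD 0.14 over 3 days), or 2.05-fold with a 95% interval of 1.73 to 2.43. The difference had the ninth smallest unadjusted p of all tested genes in limma (0.000170, SE 0.093), and after adjustment over them it missed the threshold (adjusted p = 0.211). The call rests on the setting: over 14 alternatives limma's adjusted p ran from 0.000389 to 0.892, and it passed with the trended, robust prior and with a stricter filter on low values (0.0195). The size lay between 0.99 and 1.12 in all of them, but many could not move it. Changes of the filter, prior, day term or probe set choice leave the estimate at 1.04 by construction. The other pseudocount gave 1.03, quantile normalization 1.06 and the common median 1.00. Leaving out either array of a day gave the same value: 1.00 for day 3, 0.99 for day 5 and 1.12 for day 7.

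Akr1c14 differed less between the combinations than between days. Its log2 difference between O(5R)SK and O(WT)SK was -0.06 on day 3, 0.14 on day 5 and 0.56 on day 7, with a mean of 0.21 (SE 0.143, 1.16-fold, 95% interval 0.891 to 1.5, adjusted p = 0.677 in limma). The interval spans no difference as well as a 1.5-fold one. Leaving out either day 7 array brought the mean to 0.04, and leaving out either day 3 array brought it to 0.35. The course over days was set against the combination in a separate fit with day as a number. There the slope of Akr1c14 was 0.62 per 4 days steeper with O(5R)SK (SE 0.963, 95% interval -2.0 to 3.24, adjusted p = 0.893 in limma), an interval too wide to tell a flatter from a steeper course. The fit draws a straight line, while Akr1c14 rose more before day 5 than after it in both combinations. Its SE therefore holds this shared bend as well as scatter among arrays. The sign turned without the O(WT)SK day 7 array (-1.16) and without the O(5R)SK day 3 array (-0.95). Those fits keep only the steeper early step of O(WT)SK or only the flatter late step of O(5R)SK, so the bend enters there too. That fit called 0% of all tested genes, with 953 at an unadjusted p under 0.05 and 2 genes called with the trended, robust prior.

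**Figure D2:**
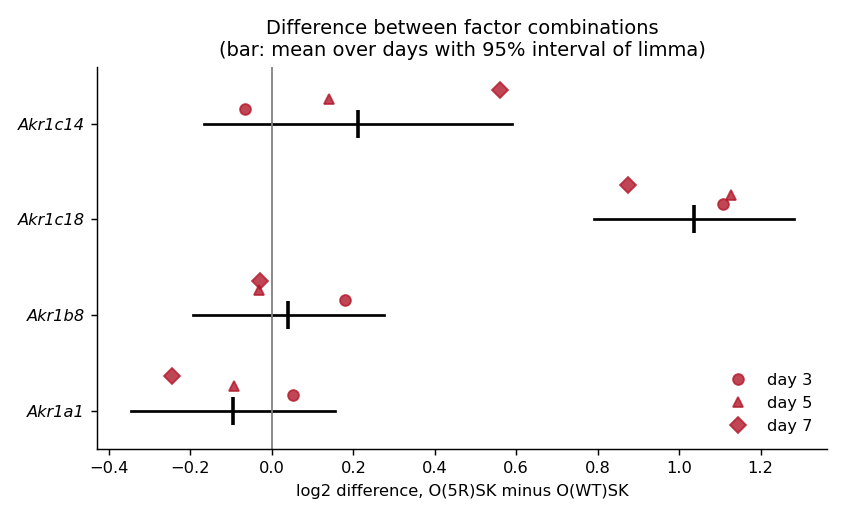
Log2 difference, O(5R)SK minus O(WT)SK, of the 4 tested members. Red symbols are single days with 1 array per combination, the black tick is the mean over the 3 days, and the black line is limma's 95% interval. Only the interval of Akr1c18, 0.79 to 1.28, lies clear of 0, and its adjusted p over all genes is 0.211.

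In time Akr1c18 moved far less than Akr1c14. Its log2 change from day 3 to day 7 was 0.44 with O(5R)SK and 0.67 with O(WT)SK, against 3.58 and 2.96 for Akr1c14. Most of it lay between days 3 and 5 (0.51 with O(5R)SK and 0.49 with O(WT)SK), after which the values were -0.07 and 0.18. In Akr1c14 days 3 and 7 were further apart than the combinations, which follows in part from its choice by that day difference. In Akr1c18 the combinations (mean 1.04) were further apart than days 3 and 7 (mean 0.56). Its rise was still not small, as 1264 of 12621 tested genes, itself included, had one at least as large. The slope of Akr1c18 differed between O(5R)SK and O(WT)SK by -0.23 per 4 days (95% interval -1.08 to 0.61, adjusted p = 0.876 in limma). That sign turned without the O(WT)SK day 3 array (0.079) and without the O(5R)SK day 7 array (0.35). The course of Akr1c18 bends at day 5 as well, so the limit of the straight line given for Akr1c14 holds here too.

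Akr1b8 encodes a reductase of lipid-derived aldehydes that was first described as induced by fibroblast growth factor. It read 2268, 1858 and 1597 on days 3, 5 and 7 with O(5R)SK, and 1999, 1899 and 1629 with O(WT)SK. The lowest array of either combination was the day 7 one. Its day 7 minus day 3 change was -0.50 with O(5R)SK and -0.29 with O(WT)SK, opposite in sign to that of Akr1c14. The combinations differed by 0.04 on the log2 scale (1.03-fold, 95% interval 0.874 to 1.21, adjusted p = 0.886 in limma), and the arrays of the 2 combinations overlapped.

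Akr1a1 encodes aldehyde reductase, which in mice also makes gulonate on the route to vitamin C. With O(5R)SK its brightest probe set gave 26384, 25856 and 23389 on days 3, 5 and 7, against 25447, 27594.5 and 27749 with O(WT)SK. The range over all 6 arrays was 1.19-fold. The other 3 probe sets of the gene ranged over 1.13-fold to 1.17-fold, between 9032 and 10198, 14040 and 16490, and 14053 and 16121. Over days, the mean difference between O(5R)SK and O(WT)SK was -0.10 on the brightest probe set (95% interval -0.35 to 0.15, adjusted p = 0.749 in limma) and -0.06, -0.05 and -0.01 on the others. The lowest value of the brightest probe set came from the O(5R)SK day 7 array, the one with the low bright end. After quantile normalization its differences by day were 0.03, 0.02 and 0.08, against 0.05, -0.09 and -0.25 as deposited.

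Akr1c13 and Akr1c12 lay near the floor of the arrays. Akr1c13 read 24.8, 23.3 and 39.3 on days 3, 5 and 7 with O(5R)SK, and 33.7, 34.9 and 32.8 with O(WT)SK. Akr1c12 read 44.1, 6.86 and 5.99 with O(5R)SK, and 3.42, 17.3 and 3.21 with O(WT)SK. Only 1 of 6 arrays for Akr1c12 and 3 of 6 for Akr1c13 exceeded the filter intensity, and no order of days or combinations is read from them. A further probe set that the annotation pairs with both genes read 76.7, 40.9 and 71.3 with O(5R)SK and 46.7, 55.5 and 53.0 with O(WT)SK, again without a common course. Since that probe set cannot tell these near copies apart, it was not counted among the 9. How far the other probe sets of the cluster take up transcripts of its other genes was not tested.

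The rest of the cluster lay low as well, apart from its last gene. Of 9 genes in the annotated order 5 passed the filter: Akr1c14, Akr1c18, Akr1c19, Akr1c21 and Akr1e1. Akr1e1 read 751, 736 and 663 on days 3, 5 and 7 with O(5R)SK, and 704, 792 and 918 with O(WT)SK. Akr1c21 read 36.9, 69.0 and 81.8 with O(5R)SK and 26.0, 56.9 and 35.1 with O(WT)SK, and Akr1c19 read 52.4, 47.4 and 40.8 with O(5R)SK and 76.0, 48.8 and 19.2 with O(WT)SK. Neither passed the threshold for day 7 against day 3 in limma (adjusted p = 0.140 for Akr1c21 and 0.136 for Akr1c19). Akr1c6 stayed between 1.86 and 11.4 and Akr1c20 between 5.79 and 21.7 on the 6 arrays. In the chromosome 6 cluster, Akr1b10, the neighbour of Akr1b8, gave 961, 1037 and 995 with O(5R)SK and 881, 1049 and 1230 with O(WT)SK on the brightest of its 3 probe sets. Its day 7 values stood above its day 3 values where those of Akr1b8 stood below. With O(5R)SK that was by only 0.05 on the log2 scale, and the day difference of Akr1b10 missed the threshold (adjusted p = 0.273 in limma).

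**Figure D3:**
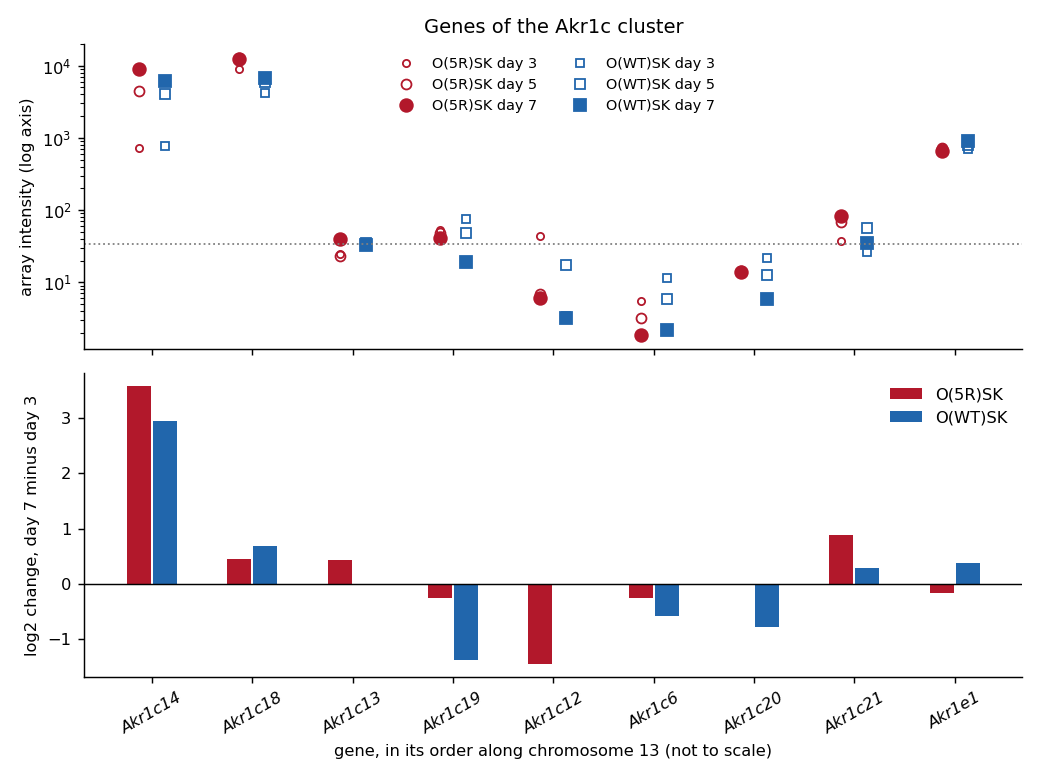
Genes of the chromosome 13 cluster in their annotated order, not to scale, with O(5R)SK in red and O(WT)SK in blue. The upper panel gives array intensity on a log axis for each day (1 array per point, dotted line at the filter intensity of 33.5), and the lower panel the log2 change from day 3 to day 7. Akr1c14 has the tallest bars, 3.58 and 2.96, next to Akr1c18 at 0.44 and 0.67; bars of genes under the dotted line rest on values near the floor.

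Genes with a course like that of Akr1c14 were sought among the 12620 other tested genes by the root mean square distance of log2 values over the 6 arrays, each gene centred on its own mean. The nearest was Rnase1, a secreted ribonuclease gene (distance 0.29, Pearson's r 0.990). It read 31.1, 185 and 295 on days 3, 5 and 7 with O(5R)SK, and 20.5, 129 and 229 with O(WT)SK. Next came Fxyd6, which encodes a regulator of the sodium pump (0.39, r 0.964), Sptssb, a subunit gene of serine palmitoyltransferase (0.40, r 0.973), Egfl6, a secreted matrix protein gene (0.43, r 0.960), Tmie (0.44, r 0.965) and the serpin gene Serpinb6c (0.46, r 0.986). All of these were higher on day 7 than on day 3 in both combinations. Over so few arrays a high r is common: 287 tested genes had an r above 0.95 with Akr1c14. The relatives were further from it than these 6, at a distance of 1.23 for Akr1c18 (r 0.485), 1.42 for Akr1a1 (r -0.136) and 1.56 for Akr1b8 (r -0.898). Most genes are far from a gene chosen for its large rise. Among the 12620 others, from the nearest on, Akr1c18 ranked 1602, Akr1a1 6923 and Akr1b8 11133.

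**Figure D4:**
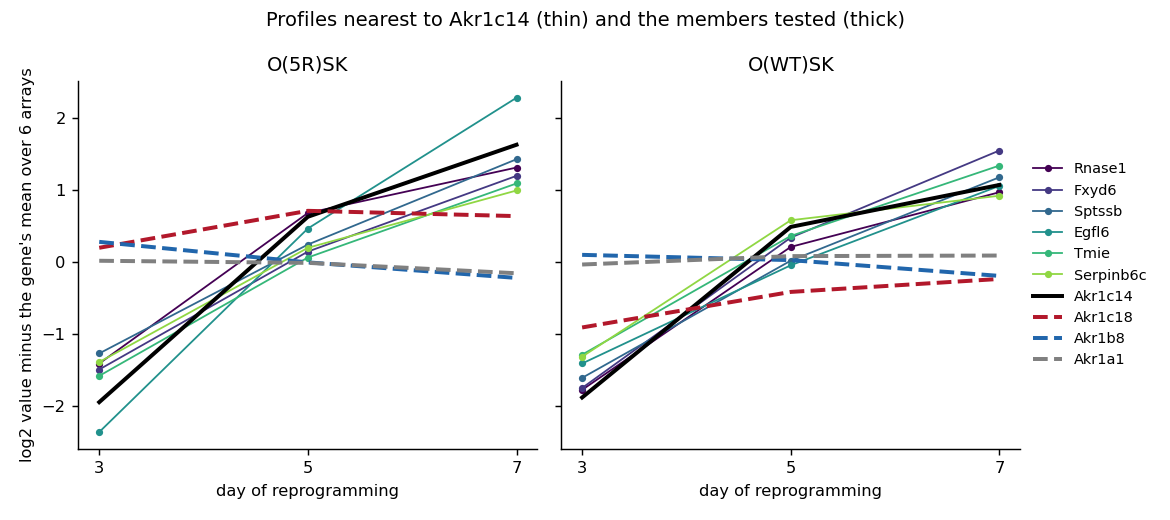
Log2 values of each gene minus its mean over the 6 arrays, by day, with O(5R)SK in the left panel and O(WT)SK in the right. Thin lines are the 6 genes nearest to Akr1c14, the thick black line is Akr1c14, and thick dashed lines are Akr1c18, Akr1b8 and Akr1a1. The thin lines follow Akr1c14 upward, while the relatives stay within a narrow band, Akr1c18 higher in the left panel than in the right.

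Genes around these enzymes were taken from lists and tested for day 7 against day 3 over both combinations. In limma 6.47% of all tested genes were higher on day 7 and 3.64% lower, and the median tested gene differed by 0.03. The other aldo-keto reductase family list has 13 genes, 12 with a probe set and 8 tested, of which 0 rose and 1 fell (median 0.09). The one that fell was Kcnab1, which encodes a beta subunit of voltage-gated potassium channels built on the aldo-keto reductase fold. It read 2027, 1116 and 779.5 on days 3, 5 and 7 with O(5R)SK, and 2121, 1374 and 1033 with O(WT)SK (log2 -1.19, SE 0.123, adjusted p = 0.0152 in limma).

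NRF2 is a transcription factor that induces detoxifying enzymes, several aldo-keto reductases among them. Of 28 genes of its regulators and antioxidant targets 24 were tested, of which 3 rose and 1 fell, with a median of 0.02. The aldehyde oxidase gene Aox1 was higher on day 7 by 1.22 on the log2 scale, the microsomal glutathione transferase gene Mgst1 by 0.98 and the epoxide hydrolase gene Ephx1 by 0.75, while the glutathione transferase gene Gstm1 fell by 0.70. Mgst1 read 5712, 6735 and 10873 with O(5R)SK and 5460, 7245 and 11118 with O(WT)SK, nearly the same in both combinations.

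In the list for polyol, glucuronate and aldehyde clearance 22 of 25 genes were tested, and 3 rose and 0 fell (median 0.35). All 3 encode aldehyde dehydrogenases, which oxidise the aldehydes that reductases reduce: Aldh1a1 (1.36), Aldh3a1 (1.30) and Aldh1a7 (1.12). Genes of that family make up much of the list, and its other tested ones missed the threshold, with differences from -0.30 to 0.68. Aldh3a1 read 1658, 2738 and 3880 with O(5R)SK and 2262, 3068 and 5930 with O(WT)SK. Of the 26 steroid metabolism and receptor genes 14 were tested, and 2 rose and 0 fell (median 0.36): the estrogen receptor gene Esr1 (1.00) and Hsd3b7 (0.86), a dehydrogenase gene of bile acid synthesis. The progesterone receptor gene Pgr read 53.2, 54.3 and 167 with O(5R)SK and 54.9, 77.7 and 106 with O(WT)SK, and missed the threshold (log2 1.10, adjusted p = 0.0659 in limma). Of 23 prostaglandin genes 15 were tested, with 0 past the threshold in either direction and a median of 0.07. The widest differences of the same sign in both combinations were those of Ptgr2, a prostaglandin reductase gene (0.66, adjusted p = 0.0729 in limma), Tbxas1 (-0.48) and Ptges2 (-0.45). These calls need all arrays of days 3 and 7: with any 1 of those 4 arrays left out limma called 0 genes in all.

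Between O(5R)SK and O(WT)SK, 0 genes of these 5 lists passed in limma. Their medians were -0.17 for the other aldo-keto reductases, -0.09 for NRF2 genes, -0.09 for polyol and aldehyde genes, 0.05 for steroid genes and -0.04 for prostaglandin genes, against -0.01 for all tested genes.

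**Figure D5:**
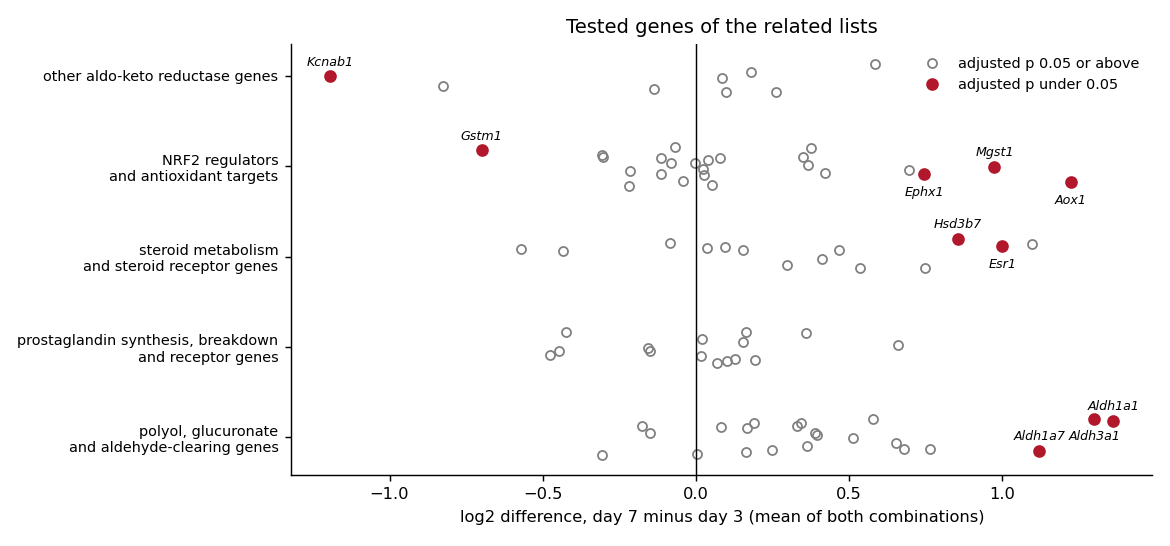
Log2 difference, day 7 minus day 3, as the mean of both combinations for each tested gene of the 5 lists, 1 point per gene (vertical scatter within a list has no meaning). Filled red points passed an adjusted p of 0.05 in limma; Aldh1a1 (1.36), Aldh3a1 (1.30) and Aox1 (1.22) lie furthest to the right and Kcnab1 (-1.19) furthest to the left.

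Markers of other cell types also moved with the days. Of 8 macrophage markers 7 were tested and 6 fell, and the summed intensity of the list was 8643 to 3121 over days 3 to 7 with O(5R)SK and 9151 to 3645 with O(WT)SK; Ptprc read 225, 142 and 70.9 with O(5R)SK and 226, 108 and 109 with O(WT)SK, and Cd68 read 445, 281 and 240.3 with O(5R)SK and 451, 336 and 317 with O(WT)SK. Of 8 adipocyte markers 5 were tested and 2 fell, Lpl (-1.67) and Cd36 (-2.11). The list sums of 4166 to 1211 with O(5R)SK and 4721 to 1849 with O(WT)SK were mostly Lpl. That gene read 3708, 2021 and 1008 with O(5R)SK and 4193, 2606 and 1490 with O(WT)SK. Adipoq never exceeded 32.2 while Pparg read 40.1 to 103. Of 8 epithelial markers 6 were tested, of which Cdh1 (1.69) and Krt8 (1.18) rose and Krt19 (-1.38) fell. Krt19 read 1705, 1216 and 552 with O(5R)SK and 1684, 1390 and 740 with O(WT)SK. The sums lay between 1903 and 2244 with O(5R)SK and between 1589 and 2187 with O(WT)SK, and Krt19 was a large part of them. Cdh1 read 133, 256 and 665 with O(5R)SK and 102, 170 and 252 with O(WT)SK, and Epcam 68.9, 54.3 and 166 with O(5R)SK and 104, 73.1 and 119 with O(WT)SK. Their part in the course of Akr1c14 was not tested. Hepatocyte markers, of a cell type that expresses several Akr1c genes, were mostly near the floor: of 8 genes 7 are on the array and 1 was tested. Alb read 2.10 to 22.1 and Afp 0.720 to 18.3. The tested gene, Apoa2, was not at the floor and read 112, 145 and 142 with O(5R)SK and 105, 114 and 102 with O(WT)SK. The list summed to 160 on day 3 and 228 on day 7 with O(5R)SK, and to 179 and 119 with O(WT)SK, most of it Apoa2. Of 12 fibroblast markers 0 rose and 2 fell, Thy1 (-0.71) and Postn (-0.65). The list summed to 124750 on day 3 and 104079 on day 7 with O(5R)SK, and to 131171 and 140136 with O(WT)SK. Of 10 pluripotency markers 7 were tested, of which 4 rose and 0 fell (median 1.10). Those that rose on day 7 over day 3, in the direction of Akr1c14, were Fbxo15 (2.29), Tfcp2l1 (2.26), Utf1 (1.77) and L1td1 (1.10), and their part in the course of Akr1c14 was not tested either. The pluripotency list summed to 5123 to 7779 with O(5R)SK and 2895 to 4001 with O(WT)SK. Most of that sum was Pou5f1, which read 4087, 4042 and 4803 with O(5R)SK and 2290, 2292 and 2741 with O(WT)SK. The sum may thus follow the introduced OCT4, and it is no measure of the cells' own pluripotency genes. Of the 7 tested pluripotency markers 5, Pou5f1 among them, had a positive difference between O(5R)SK and O(WT)SK, and Utf1 (-0.49) was among the others. Akr1c18, which is in none of these lists, was likewise higher with O(5R)SK. A part of the marker lists in its difference was not tested.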

How the data were processed

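Per the labels' protocols, total RNA from Trizol was turned into biotinylated cRNA and hybridised to Affymetrix arrays. The deposited values are linear intensities that the authors made with affy, per the submitters' processing notes; which version, summary method or background correction they used is not given in the sources used here. Arrays were scaled but not quantile normalized, as their quantiles differ. Groups and days came from the labels, and there were 0 unused columns of values. Of 45101 probe sets 34958 name 1 gene, 932 several and 9211 none. The probe set with the highest mean stood for a gene. Values were log2(intensity + 16), and genes with a mean above the 40th percentile of probe sets were tested with limma 3.58.1 in R 4.3.3 and Benjamini-Hochberg adjustment over all 12621. The main fit had combination and day (3 levels) as terms, with 2 residual degrees of freedom and a prior of 2.59. The slope fit used day as a number. Fits were tested on simulated data. Promoter windows were aligned globally with Biopython 1.88 (match 1, mismatch -1, gap opening -2, extension -0.5). Lists and members were chosen with earlier results of these data known. Named genes were all members, per related list the 3 tested genes with the largest day difference of the same sign in both combinations, the 6 nearest profiles without predicted genes, and the first 2 markers of each list. Beyond that rule, Gstm1, Ms4a4d, Lbp, the cluster neighbours Akr1e1, Akr1c6, Akr1c20 and Akr1b10, and the markers Pdgfra, Lum, Fap, Thy1, Postn, Fbxo15, Tfcp2l1, Utf1 and L1td1 were named after their values were seen. The same holds for the markers Krt8, Krt19, Lpl, Cd36 and Apoa2. Alternatives changed the pseudocount, filter, scaling, probe set choice, prior, day term and arrays. Figures used Python 3.11.15 and matplotlib 3.10.9.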

Additional observations from a re-analysis of the deposited data

Results flagged for a closer look

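On the brightest probe set of Akr1a1 the course over days had opposite signs in the combinations: against day 3, both later arrays read lower with O(5R)SK and both read higher with O(WT)SK. By day 7 the log2 change was -0.17 with O(5R)SK and 0.12 with O(WT)SK. The test of that difference, the slope fit in limma, gave -0.30 per 4 days (SE 0.176, 95% interval -0.78 to 0.18, adjusted p = 0.730). After quantile normalization the changes were 0.13 and 0.08, of the same sign. The other 3 probe sets of the gene did not show this pattern: on day 5 all of them read higher than on day 3 in both combinations, and on day 7 their changes were 0.039, -0.12 and 0.028 with O(5R)SK and 0.14, 0.21 and 0.20 with O(WT)SK.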

How the results depend on the processing

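For O(5R)SK against O(WT)SK, limma called 2 genes with a pseudocount of 64, 27 with the filter at the 60th percentile and 83 with the trended, robust prior, which also called 2 genes for the difference of slopes. For day 7 against day 3 it called 1276 genes, and 1988 with a pseudocount of 64, 2204 with the stricter filter, 2850 with the trended, robust prior, 0 without a filter, and 0 to 1059 with 1 array left out (0 without any day 3 or day 7 array). Quantile normalization gave Akr1a1 a difference of 0.044 between combinations, a slope difference of 0.046 and a day 7 minus day 3 difference of 0.11, and the mean of probe sets gave 0.056 for the last. With 1 array left out, that day difference of Akr1a1 ran from -0.14 to 0.0884, the combination difference of Akr1b8 from -0.0297 (without either day 3 array) to 0.0763, and the slope difference from -1.16 to 2.41 for Akr1c14 and from -0.82 to 0.35 for Akr1c18; an array left out leaves 1 residual degree of freedom, and the lone array of its day is assumed to vary like the others. For the slopes of Akr1c14 and Akr1c18, an array left out also changes which part of their bent course the straight line covers. What else moved these values was not tested. No other difference of the 4 tested members changed sign, and only Akr1c18 passed the threshold, with the stricter filter and the trended, robust prior. No paired analysis was possible because the labels number no replicates; the main fit already matches the combinations by day, and without the day term the adjusted p of Akr1c18 was 0.892. The number of arrays limits the precision.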

Other observations

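The difference of Akr1c18 was also set against genes at least as bright, a set in which it is itself the dimmest. Only differences with O(5R)SK higher were counted. Of 553 tested genes with a mean at least as high as its own, 1 had a log2 difference between O(5R)SK and O(WT)SK of 1.04 or more, which was Akr1c18 itself, while 34 of all 12621 tested genes had one. This comparison was made after the values were seen and carries no test.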
